A study of Mus musculus with 9 samples.

Results

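A set of 10 genes that separate the 2 main monocyte subsets of the mouse were followed through the series: 4 markers of classical monocytes (Ly6c2, Chil3, Plac8 and Hp) and 6 markers of non-classical monocytes (Ace, Treml4, Spn, Cd300e, Adgre4 and Eno3). The members were taken by gene symbol from 23238 symbols, and all 10 were among the 10107 genes that passed the filter on low counts. Read counts per gene were available for 9 libraries, 3 from blood of untreated mice (Blood_Normal), 3 from blood of mice with a neuromyelitis optica-like lesion (Blood_NMO) and 3 from the brain of such mice (Brain_NMO). All mice were wild type, and the methods describe them as female C57BL/6N mice. The lesion was induced by injecting immunoglobulin G of patients with neuromyelitis optica together with human complement into the striatum of 1 hemisphere, and the cells were collected on day 1. Cells of 5 mice were pooled for each library, so the spread between libraries is a spread between pools. In both tissues, cells were sorted as CD45 positive, CD11b positive, P2ry12 negative, Ly6G negative and Ly6C positive (Ly6C high in the methods). Blood cells came from a density gradient of mononuclear cells and brain cells from dissociated tissue, so tissue and preparation cannot be told apart. Monocytes of a normal brain and of mice given control immunoglobulin were not analysed here, so a Brain_NMO difference is one between brain and blood and not between lesion and no lesion.

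Classical monocytes leave the bone marrow with high Ly6C on their surface, circulate briefly and enter inflamed tissue, where they become macrophages or dendritic cells. Non-classical monocytes have little Ly6C, patrol the inner surface of vessels and descend largely from classical monocytes under the nuclear receptor Nr4a1. A sort for high Ly6C selects the classical subset, so the level of the non-classical markers describes what these sorted cells still contained or expressed. The Ly6C antibody binds the products of Ly6c1 and Ly6c2, and the sort therefore acted on the product of a member, in the same way in all groups.

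Total counts per library ranged from 7582571 to 10416076, and levels are given as CPM, counts scaled to a common library total, with TMM factors. Because 1 tag at the 3′ end stands for 1 transcript, CPM values were not divided by gene length. The floor was set at 3 counts, or 0.271 to 0.429 CPM. Replicate 3 of Blood_NMO and replicate 2 of Brain_NMO stood apart as sparse libraries. Of the genes that reached 50 CPM in the 2 remaining libraries of a group, 22.2% were at or under the floor in Blood_NMO replicate 3 and 8.28% in Brain_NMO replicate 2, against at most 1.94% in the other 7 libraries. Members at or under the floor numbered at most 1 in each of Blood_Normal and in Blood_NMO replicates 1 and 2, 3 in Blood_NMO replicate 3, and 3, 3 and 2 in the Brain_NMO libraries. The general monocyte markers (7 of 7 measured, among them Csf1r, Ccr2 and Lyz2) had a count in every group, with a summed level of 1738 to 3333 CPM in the blood libraries and 3326 to 5296 CPM in the brain libraries.

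Of the 10 members, Ly6c2 and Spn were lower in each of the 3 Brain_NMO libraries than in every one of the 6 blood libraries. The same held for 3.13% of all genes tested. In the edgeR fit of all 9 libraries, Spn was the member called at an adjusted p under 0.05, in the comparison of Brain_NMO with both blood groups together. There, 0.297% of all genes were called lower. This call of Spn was lost under limma-voom, with the replicate number as a block, and in most fits that left out 1 library. DESeq2 and stricter or looser filters on low counts also called Spn or Ly6c2 in comparisons with 1 blood group. Hp and Adgre4 were lower in every Brain_NMO library than in every Blood_NMO library (6.05% of all genes) but overlapped Blood_Normal, and Cd300e had no count in the brain. The levels of Chil3, Plac8, Ace, Treml4 and Eno3 overlapped between Brain_NMO and Blood_NMO. In bulk libraries, fewer cells of a type and less RNA per cell cannot be told apart.

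**Figure D1:**
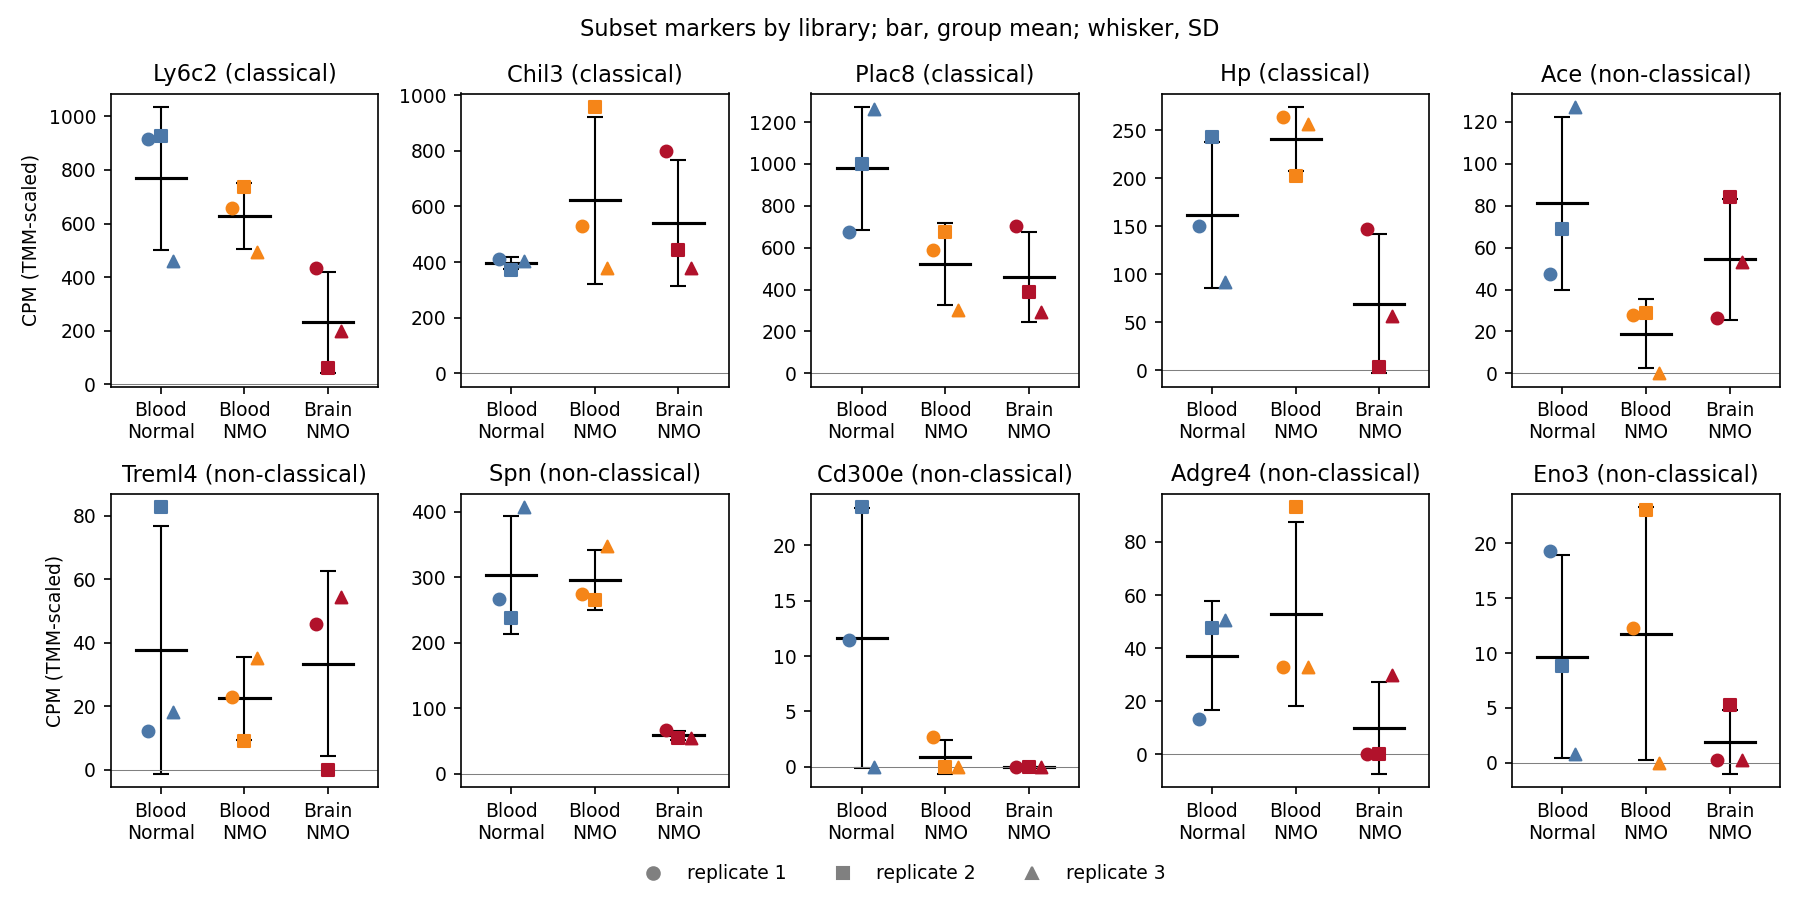
Levels of the 10 members in CPM (TMM-scaled, linear axis from each panel's own range) by group, with 1 symbol per library, a bar at the group mean and a whisker of 1 SD. The 3 Brain_NMO symbols lie below all 6 blood symbols for Ly6c2 and Spn, and Cd300e is at 0 in the brain.

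Ly6c2 encodes a Ly6C surface protein anchored by glycosylphosphatidylinositol and lies on the minus strand at chr15:75108158-75111970 (GRCm38, GENCODE vM21). Its level was 917, 928 and 460 CPM in the Blood_Normal libraries, 658, 735 and 493 CPM in the Blood_NMO libraries and 435, 59.1 and 198 CPM in the Brain_NMO libraries. The brain libraries were all below the blood libraries, although Brain_NMO replicate 1 came within a small margin of Blood_Normal replicate 3. The means were 768 ± 267 CPM (SD, n = 3), 629 ± 124 CPM and 231 ± 190 CPM. Brain_NMO differed from Blood_NMO by a log2 fold change of -1.45 with a standard error of 0.57 (edgeR quasi-likelihood test, adjusted p = 0.802). Against both blood groups the log2 fold change was -1.59 with a standard error of 0.53 (adjusted p = 0.446), so the change did not pass the adjustment over all genes. Leaving out 1 library moved the log2 fold change against Blood_NMO between -2.29 (without Brain_NMO replicate 1) and -0.97 (without Brain_NMO replicate 2) and that against both blood groups between -2.44 and -1.12 (the same libraries), and none of these was called. Without both sparse libraries the value against Blood_NMO was -1.12 (adjusted p = 0.663).

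Ly6c2 shares sequence with its neighbour Ly6c1, and the authors counted reads with several alignments. Of 708 possible windows of 75 bases in the last 500 bases of the Ly6c2 transcripts, 164 (23.2%) also occur in a Ly6c1 transcript, so part of the counts of the pair could be split or doubled. Ly6c1, which endothelium also expresses, was at 54.6, 48.7 and 47.3 CPM in Blood_Normal, 33.8, 42.0 and 201 CPM in Blood_NMO, and 91.8, 5.86 and 313 CPM in Brain_NMO. Its libraries overlapped between all groups, and in Brain_NMO replicate 3 Ly6c1 was above Ly6c2. The log2 fold change of Ly6c1 between Brain_NMO and Blood_NMO was 0.57, with an adjusted p of 1.

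The 250 bases before the first of the Ly6c2 starts in RefSeq are shown because Ly6c2 was the classical marker that separated brain from blood. They are read on the minus strand of GRCm38.p6 at chr15:75111972-75112221, and the capitals mark the only match among the motifs searched, GAGGAAGT, a binding sequence of the myeloid factor PU.1.
Ly6c2 promoter: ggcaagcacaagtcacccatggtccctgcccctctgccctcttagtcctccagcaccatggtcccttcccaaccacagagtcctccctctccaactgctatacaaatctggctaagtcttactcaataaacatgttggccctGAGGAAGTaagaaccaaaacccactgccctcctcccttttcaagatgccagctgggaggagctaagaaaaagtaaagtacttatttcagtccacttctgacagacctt
The 4 motifs searched, on both strands in the 250 bases before each start, were AAAGGTCA (the NBRE bound by Nr4a1), TTGCNNCA (C/EBP), GAGGAAGT (PU.1) and the paired-core motif of interferon regulatory factors. GAGGAAGT occurs in 2.44% of the 32851 promoters of the table, and Ly6c2 was the only one of the 9 members with a promoter entry to hold it. The run before the second Ly6c2 start, not shown, holds the marked match and a further GAGGAAGT at bases 8 to 1 before that start. AAAGGTCA (1.34% of all promoters) and the interferon regulatory factor motif (2.98%) matched no member promoter. A match describes letters and not an occupied site.

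Hp encodes haptoglobin, the plasma protein that binds free haemoglobin, and lies at chr8:109575128-109579172 on the minus strand. It was at 151, 243 and 92.3 CPM in Blood_Normal, at 264, 203 and 257 CPM in Blood_NMO and at 147, 3.88 and 56.9 CPM in Brain_NMO. Every brain library was below every Blood_NMO library, while Brain_NMO replicate 1 lay within the range of Blood_Normal. The log2 fold change between Brain_NMO and Blood_NMO was -1.80 with a standard error of 0.91 (adjusted p = 0.802). Leaving out Brain_NMO replicate 1 moved it to -2.99 and leaving out Brain_NMO replicate 2 to -1.22, neither of them called. Neutrophils also express Hp, although the sort for Ly6G-negative cells should remove most of them. Of the 11 neutrophil markers listed, 10 were measured, and Ly6g was not analysed here. Their summed level was 61.5 to 267 CPM in Blood_Normal, 125 to 243 CPM in Blood_NMO and 434, 1889 and 1050 CPM in Brain_NMO. S100a8, the highest (448 CPM on average), and S100a9 held 147 and 78.4, 808 and 656, and 388 and 430 CPM in the 3 brain libraries. Of 7 markers tested, 3 (S100a8, Ngp and Lcn2) were higher without overlap in Brain_NMO than in Blood_NMO (6.3% of all genes) and none lower (6.05%). Retnlg and Mmp9 had no count in the brain, Csf3r overlapped, and Cxcr2 was at no more than 0.562 CPM in any library. Hp was lowest in Brain_NMO replicate 2, a sparse library that also had the highest neutrophil marker sum. The part of these cells in the level of Hp was not tested.

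Chil3 encodes the chitinase-like lectin Ym1 and lies at chr3:106147554-106167564 on the minus strand. Its level was 411, 370 and 405 CPM in Blood_Normal, 529, 958 and 377 CPM in Blood_NMO and 800, 442 and 379 CPM in Brain_NMO. The groups overlapped, and within both Blood_NMO and Brain_NMO 1 library was far above the other 2. The log2 fold change between Brain_NMO and Blood_NMO was -0.20 with a standard error of 0.43, and its sign turned to 0.27 without Blood_NMO replicate 2 and to 0.01 without Brain_NMO replicate 3. Neutrophil precursors express Chil3 too, and the brain library with the lowest neutrophil sum, replicate 1, had the highest Chil3. The part of these cells in the level of Chil3 was not tested. Of 474 windows at the 3′ end of Chil3, 52 (11%) also occur in the paralog Chil4, which was at no more than 0.418 CPM in any library. Chil4 was looked up after the levels of Chil3 had been seen.

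Plac8 encodes a small cysteine-rich protein found in many leukocytes and lies at chr5:100553725-100572245 on the minus strand. It was the highest of the 10 members in Blood_Normal, at 675, 997 and 1263 CPM. The Blood_NMO libraries held 588, 675 and 301 CPM, and the Brain_NMO libraries 703, 387 and 291 CPM. Plac8 was lower in Blood_NMO than in Blood_Normal with no overlap, but the nearest libraries were almost level (675.1 CPM in Blood_Normal replicate 1 and 674.7 CPM in Blood_NMO replicate 2). The log2 fold change between the blood groups was -0.91 with a standard error of 0.43 (adjusted p = 1). Brain_NMO against Blood_Normal gave -1.09 with a standard error of 0.44 (adjusted p = 0.708), and Brain_NMO against Blood_NMO -0.18, a value that turned to 0.07 without Blood_NMO replicate 2 and to 0.08 without Brain_NMO replicate 3.

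Spn, the gene of the sialomucin CD43 that non-classical monocytes carry at a high level, showed the clearest difference among the members. It lies on the minus strand at chr7:127132232-127137823. Spn was at 267, 238 and 407 CPM in Blood_Normal, at 274, 265 and 348 CPM in Blood_NMO, and at 66.6, 55.4 and 54.0 CPM in Brain_NMO. The blood groups overlapped throughout, and the 3 brain libraries lay close together and far below them. The means were 304 ± 90.5 CPM (SD, n = 3), 296 ± 45.3 CPM and 58.7 ± 6.88 CPM. Against both blood groups Brain_NMO held 0.196 of the mean level, with a log2 fold change of -2.35, a standard error of 0.46 and an adjusted p of 0.0423 (edgeR). Against Blood_NMO alone the log2 fold change was -2.33 with a standard error of 0.50 (adjusted p = 0.089), and against Blood_Normal alone -2.37 with a standard error of 0.50 (adjusted p = 0.0818). The size of the difference stayed between -2.45 and -2.20 when each library was left out in turn, but the call against both blood groups was then lost for every library except Blood_NMO replicate 3, with an adjusted p of up to 0.203 without Brain_NMO replicate 3. Without both sparse libraries the log2 fold change was -2.23 and the adjusted p 0.0239. Under limma-voom the call against both blood groups was lost (adjusted p = 0.0789). It was also lost in an edgeR fit with the replicate number as a block (adjusted p = 0.0858). Between Blood_NMO and Blood_Normal the log2 fold change of Spn was -0.04 with a standard error of 0.47.

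The 250 bases before the RefSeq start of Spn are given because it was the member called, and none of the 4 motifs matched there, so the run (GRCm38.p6, chr7:127137824-127138073, minus strand) has no capitals.
Spn promoter: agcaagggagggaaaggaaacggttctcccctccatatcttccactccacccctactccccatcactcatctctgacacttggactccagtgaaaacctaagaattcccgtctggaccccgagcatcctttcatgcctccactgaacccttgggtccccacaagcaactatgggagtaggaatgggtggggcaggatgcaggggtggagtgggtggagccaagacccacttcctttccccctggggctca

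CD43 is also carried by natural killer (NK) cells and T cells. The CD11b gate should remove most T cells, and no marker of NK cells was among the sorting antibodies. The 6 NK cell markers listed (Ncr1, Klrb1c, Gzma, Prf1, Nkg7 and Eomes) were all measured and all had a count in every group. Their summed level was 2239, 1880 and 2353 CPM in Blood_Normal, 2205, 2458 and 3031 CPM in Blood_NMO and 21.1, 288 and 150 CPM in Brain_NMO. The NK cell markers were thus lower in every brain library than in every blood library, as Spn was. Of the 6, 4 were lower without overlap between Brain_NMO and Blood_NMO (6.05% of all genes), and Gzma, the highest of them, had a mean of 71.3 CPM against 1491 CPM (adjusted p = 0.0553). By edgeR, Nkg7 was called lower there (34.2 against 489 CPM, adjusted p = 0.0142), as 0.228% of all genes were. Against both blood groups, edgeR called Nkg7 (adjusted p = 0.0129) and Gzma (adjusted p = 0.036) lower, as it did 0.297% of all genes. Nkg7 was named after its values had been seen. Within the brain, the library with the lowest NK cell marker sum, replicate 1, had the highest Spn. T cell markers (5 of 5 measured) summed to 31.7 to 147.5 CPM in the blood libraries and 0 to 22.9 CPM in the brain libraries, with Lck highest in each group. Cd3e and Cd5 were at 0 in Brain_NMO, but Cd5 was at 0 in Blood_NMO too and Cd3e averaged 0.0464 CPM there. The part of NK and T cells in the difference of Spn was not tested.

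**Figure D2:**
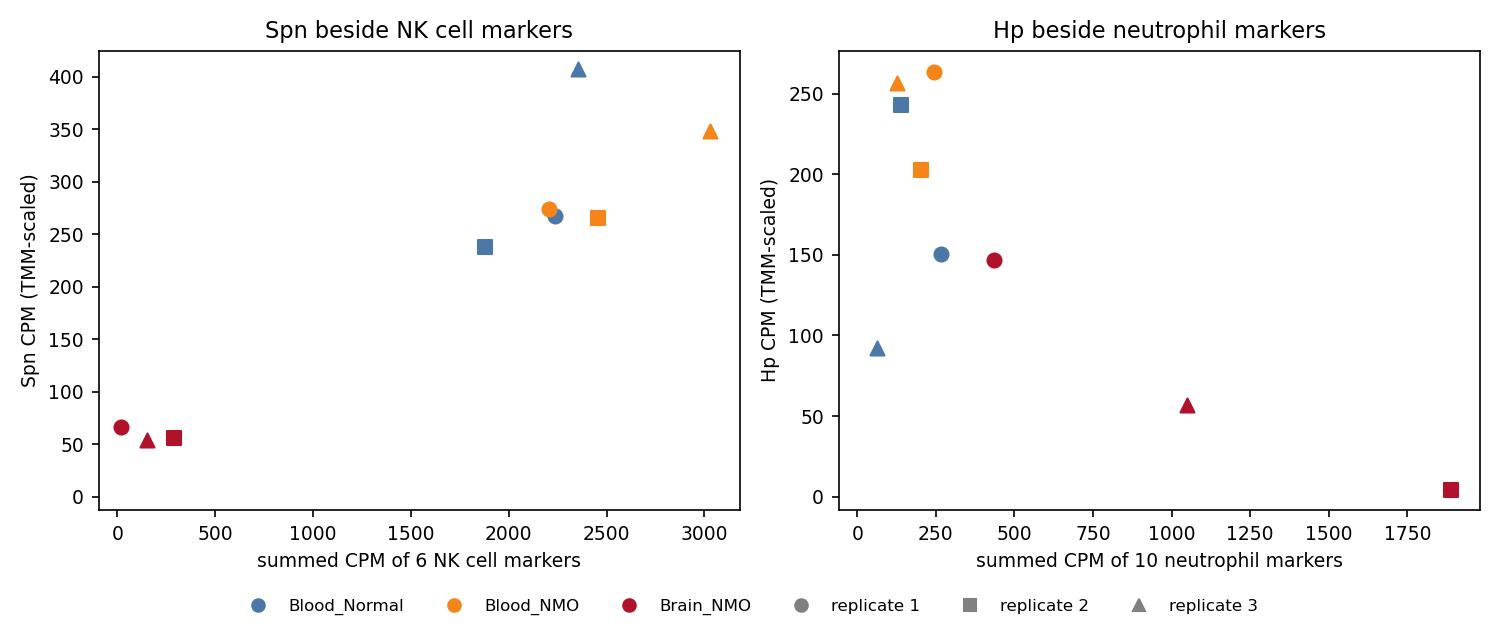
Spn level against the summed level of 6 NK cell markers (left) and Hp level against the summed level of 10 neutrophil markers (right), both axes in CPM (TMM-scaled, linear), 1 symbol per library. The brain libraries lie at the lower left for Spn, with NK cell marker sums of 21.1 to 288 CPM, and towards the right for Hp, with neutrophil marker sums of 434 to 1889 CPM.

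Ace encodes angiotensin-converting enzyme, which endothelium, a cell type that the CD45 and CD11b gates should remove, also makes, and lies on the plus strand at chr11:105967945-105989964. It was at 47.4, 68.7 and 127 CPM in Blood_Normal, at 27.7, 29.0 and 0 CPM in Blood_NMO and at 26.4, 84.1 and 53.1 CPM in Brain_NMO. All 3 Blood_NMO libraries were below all 3 Blood_Normal libraries, while Brain_NMO overlapped both. The log2 fold change between Blood_NMO and Blood_Normal was -2.10 with a standard error of 1.59 (adjusted p = 1), and that between Brain_NMO and Blood_NMO was 1.53 with a standard error of 1.56. The value of 0 came from the sparse Blood_NMO replicate 3. An annotated gene, Gm11651, overlaps Ace on the opposite strand, and the strand setting of the counting is not given in the sources used here. The endothelium markers (5 measured) summed to 52.9 to 242 CPM in the blood libraries and 120 to 504 CPM in the brain libraries, with Cldn5 at 0 in both blood groups. Their part in the level of Ace was not tested.

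Treml4, a receptor of the TREM family on non-classical monocytes and some dendritic cells, lies at chr17:48264295-48275360. It was at 12.3, 82.7 and 18.2 CPM in Blood_Normal, 23.0, 8.98 and 35.3 CPM in Blood_NMO and 45.8, 0 and 54.3 CPM in Brain_NMO. The groups overlapped, with a single high library in Blood_Normal and a single library at 0 in Brain_NMO. Its log2 fold change between Brain_NMO and Blood_NMO was 0.57 with a standard error of 1.89. The conventional dendritic cell markers (5 of 5 measured, Cd209a highest) summed to 9.58 to 168 CPM in the blood libraries and 122 to 366 CPM in the brain libraries, and their part in the level of Treml4 was not tested.

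Adgre4, an adhesion receptor of the EGF-TM7 family, lies at chr17:55749984-55853662, where CT573084.1 and Gm18417 overlap it on the opposite strand. It was at 13.5, 47.6 and 50.6 CPM in Blood_Normal, at 33.0, 93.1 and 32.8 CPM in Blood_NMO, and at 0, 0 and 30.1 CPM in Brain_NMO. The brain libraries were all below the Blood_NMO libraries, and 2 of them held no count. Because 1 library made up the brain mean, whose SD was 17.4 CPM, the log2 fold change of -2.40 against Blood_NMO had a standard error of 2.16 (adjusted p = 1). Without Brain_NMO replicate 3 both remaining brain libraries are at 0 and the fitted value is no longer a measure of size.

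C/EBP sites are of interest because Cebpb takes part in making non-classical monocytes, and Ace and Adgre4 were the 2 members with a match to TTGCNNCA, a motif that 9.59% of all promoters hold. The Ace window, chr11:105974968-105975035 on the plus strand, lies inside the gene before its second RefSeq start. The Adgre4 window is chr17:55749789-55749856 on the plus strand. The capitals mark the match within each window of 68 bases.
Ace window: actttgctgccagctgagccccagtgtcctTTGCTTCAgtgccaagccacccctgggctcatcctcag
Adgre4 window: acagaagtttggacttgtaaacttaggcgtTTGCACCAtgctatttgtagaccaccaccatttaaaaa

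Cd300e, an activating receptor of the CD300 family, lies at chr11:115051917-115062177. It was at 11.4, 23.4 and 0 CPM in Blood_Normal, at 2.65, 0 and 0 CPM in Blood_NMO, and had no count in the 3 Brain_NMO libraries. With the floor of 3 counts per library in place of 0, Brain_NMO was at least 38-fold lower than Blood_Normal (adjusted p = 0.708) and at least 2.88-fold lower than Blood_NMO. Blood_Normal replicate 3 was at 0 as well, so the groups overlapped. Eno3, the muscle form of enolase, lies at chr11:70657202-70662513. It was at 19.3, 8.83 and 0.813 CPM in Blood_Normal, at 12.3, 23.0 and 0 CPM in Blood_NMO, and at 0.225, 5.30 and 0.198 CPM in Brain_NMO. Its groups overlapped, and the standard error of 3.11 exceeded the log2 fold change of -2.62 between Brain_NMO and Blood_NMO.

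Set side by side, 4 of the 10 members (Ly6c2, Hp, Spn and Adgre4) were lower without overlap in Brain_NMO than in Blood_NMO, where 6.05% of all 10107 genes tested were, and none was higher without overlap (6.3% of all genes). Of the members, 2 (Ly6c2 and Spn) were lower at an unadjusted p under 0.05 with a fold change of 1.2 (3.84% of all genes), and none was higher (1.48%). The fitted change was below 0 for 8 members, as for 48.6% of all genes. No member was called at an adjusted p under 0.05 by edgeR, which called 0.228% of all genes lower and 0.0198% higher, or by limma-voom, which called 0.0693% lower and 0.435% higher. DESeq2 called Spn, and it called 2.7% of all genes lower and 0.803% higher. The median log2 fold change was -0.82 for the 4 classical and -2.37 for the 6 non-classical members, against 0.05 over all genes tested. With Cd300e set at its bound in place of its fitted change, the non-classical median was -1.93.

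Between Brain_NMO and Blood_Normal, 2 members (Ly6c2 and Spn) were lower without overlap, where 9.37% of all genes were, and none was higher (6.07%). At an unadjusted p under 0.05 with a fold change of 1.2, 3 members were lower (Ly6c2, Plac8 and Spn; 4.07% of all genes) and none was higher (1.75%). No member was called at an adjusted p under 0.05 by edgeR (0.218% of all genes called lower and 0.0297% higher) or limma-voom (0.0594% lower and 0.267% higher). DESeq2 called Spn, and 2.59% of all genes lower and 1.23% higher. The fitted change was below 0 for 9 members, against 53.7% of all genes. Against both blood groups together, Ly6c2 and Spn were lower without overlap (3.13% of all genes) and at an unadjusted p under 0.05 (4.26%), and Spn alone was called by edgeR (0.297%). DESeq2 called Spn as well (3.57% of all genes lower and 1.59% higher), and limma-voom called no member (0.208% lower and 0.999% higher). No member was higher without overlap (3.57%), at an unadjusted p under 0.05 (2.62%) or at an adjusted p (0.139%), and 7 members had a fitted change below 0 (49.8%). These comparisons share the brain libraries and are not independent of each other.

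The comparison of Blood_NMO with Blood_Normal asked whether circulating monocytes differed between mice with the lesion on day 1 and untreated mice. Anaesthesia, surgery and the injection differed between these groups too, so they cannot be told apart from the lesion. No member was called at an adjusted p under 0.05 by edgeR, DESeq2 or limma-voom, and none had an unadjusted p under 0.05 in edgeR or DESeq2 (0.247% of all genes lower and 0.465% higher in edgeR, which called 0% at an adjusted p). DESeq2 called 0.219% of all genes lower and 0.5% higher between these groups, and limma-voom 0%. Under limma-voom Plac8 was lower and Chil3 higher at an unadjusted p under 0.05. Plac8 and Ace, 2 of the 10 members, were lower in Blood_NMO without overlap (4.45% of all genes), and none was higher (2.34%). The fitted change was below 0 for 6 members and for 57.4% of all genes. The median log2 fold change was 0.14 for the classical and -0.39 for the non-classical members, against -0.16 over all genes tested. The standard errors of the members ranged from 0.43 to 3.84 on the log2 scale, and a p that misses the threshold does not show equal levels.

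**Figure D3:**
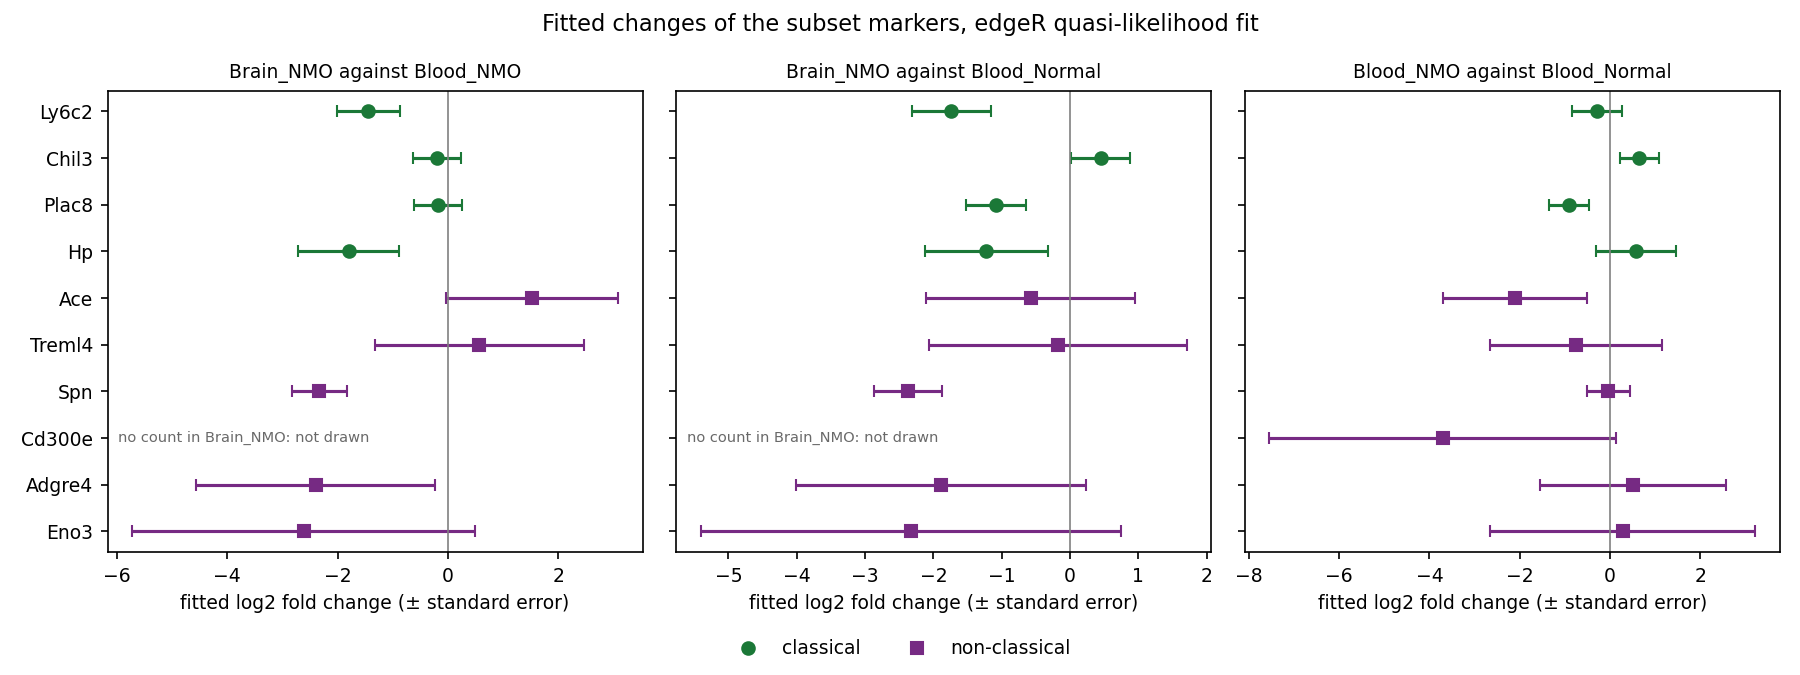
Fitted log2 fold changes of the members in 3 comparisons (points, edgeR) with bars of 1 standard error on each side. Circles are classical and squares non-classical members, and Cd300e is not drawn where a group had no count. In both brain comparisons Ly6c2 and Spn lie left of 0 by more than 2 standard errors, whereas the bars of Treml4 and Eno3 cross 0 in all 3 panels.

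Ordered by mean level, Plac8 (978 CPM), Ly6c2 (768 CPM) and Chil3 (395 CPM) led in Blood_Normal, Ly6c2 (629 CPM), Chil3 (621 CPM) and Plac8 (521 CPM) in Blood_NMO, and Chil3 (540 CPM), Plac8 (461 CPM) and Ly6c2 (231 CPM) in Brain_NMO. Spn came next in both blood groups, and in the brain it stood below Hp (69.3 CPM). Cd300e and Eno3 were the lowest members in all 3 groups. Of the 9 pairs of neighbours in each order, 8 in Blood_Normal, 7 in Blood_NMO and 8 in Brain_NMO had libraries that overlapped, so most neighbours did not differ beyond their spread. The exceptions were Ly6c2 above Chil3 in Blood_Normal, Spn above Hp and Hp above Adgre4 in Blood_NMO, and Eno3 above Cd300e in Brain_NMO, where 2 of the 3 Eno3 values were under the floor.

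Summed over the 4 classical members, the level was 2154, 2539 and 2219 CPM in Blood_Normal, 2039, 2570 and 1428 CPM in Blood_NMO and 2085, 893 and 925 CPM in Brain_NMO. The brain sum of replicate 1 was within the range of the blood libraries and those of the other 2 were below it. The 6 non-classical members summed to 371, 469 and 604 CPM, to 373, 419 and 416 CPM, and to 139, 145 and 192 CPM in the same order, so every brain library was below every blood library. Spn made up 50.7% to 83.6% of the non-classical sum in the blood libraries and 28.2% to 47.9% in the brain libraries. Without Spn, the other 5 members summed to 104, 231 and 197 CPM in Blood_Normal, 98.6, 154 and 68.2 CPM in Blood_NMO and 72.4, 89.4 and 138 CPM in Brain_NMO, and the groups overlapped.

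The non-classical share of the 10-gene sum was 14.7%, 15.6% and 21.4% in Blood_Normal, 15.5%, 14.0% and 22.6% in Blood_NMO and 6.25%, 14.0% and 17.2% in Brain_NMO. The means were 17.2 ± 3.63%, 17.3 ± 4.57% and 12.5 ± 5.61% (SD, n = 3), and the groups overlapped. The share in Brain_NMO replicate 1 was the lowest of the 9 libraries. Brain_NMO replicate 2 (13.96%) was just below the lowest blood library (14.02%), and Brain_NMO replicate 3 was inside the range of blood. Against Ly6c2 alone in place of the 4 classical members, the non-classical share was 28.8%, 33.6% and 56.8% in Blood_Normal, 36.2%, 36.3% and 45.8% in Blood_NMO and 24.2%, 71.0% and 49.2% in Brain_NMO. On that measure the brain libraries held both the lowest and the highest share of the 9. These sums are descriptions over genes of unequal level, and were not tested.

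**Figure D4:**
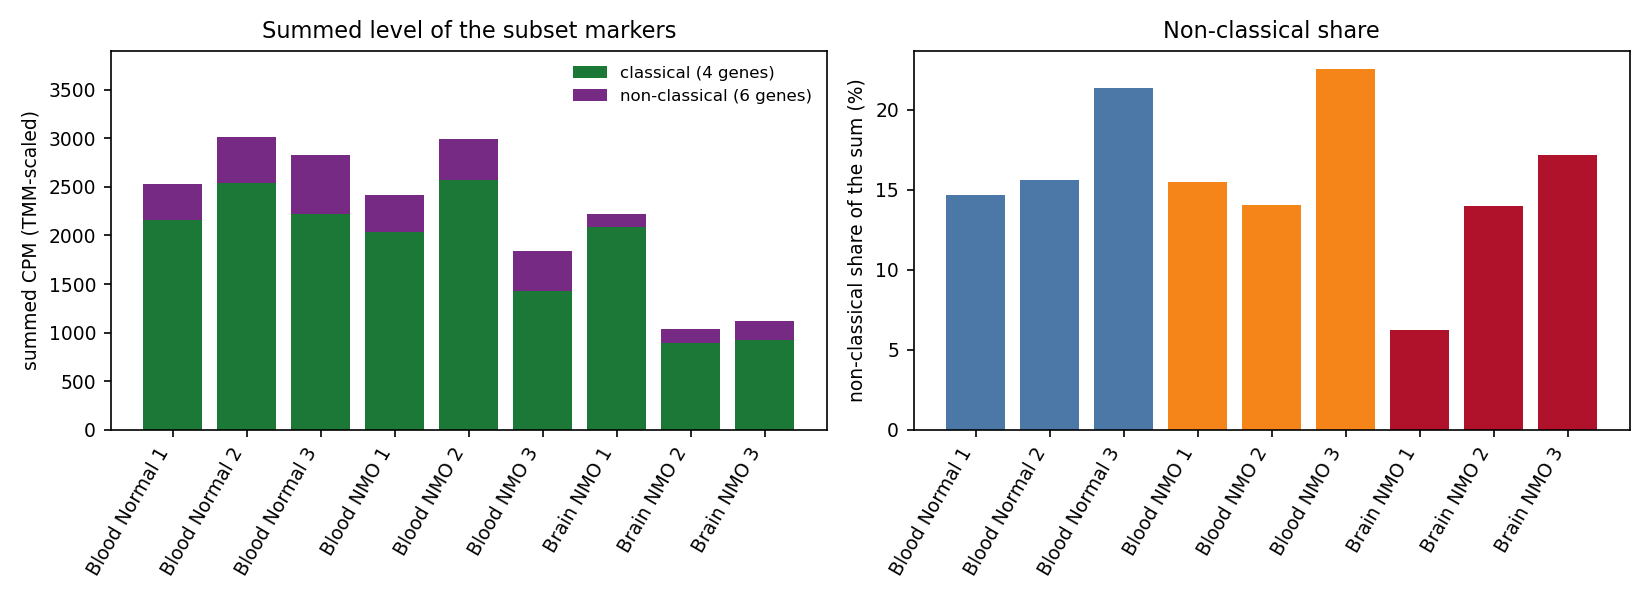
Summed CPM of the classical (4 genes) and non-classical (6 genes) members stacked per library (left) and the non-classical share of that sum in percent (right), 1 bar per library. Non-classical sums are 139 to 192 CPM in the brain and 371 to 604 CPM in blood, while the shares of the groups overlap.

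The members of a subset did not follow 1 pattern over the 9 libraries. Likeness was measured as the root mean square difference between standardized log2(CPM + 1) profiles among the 8 members with a mean of at least 20 CPM, where smaller values mean greater likeness. Of 28 pairs, Ly6c2 and Hp, both classical, were the most alike (0.339), followed by the mixed pairs Hp with Treml4 (0.647) and Ly6c2 with Spn (0.682). Hp and Ace were the least alike (1.588). Among 5589 genes with a mean of at least 20 CPM, those most like Ly6c2 were Bag6 (0.178), Ptprc (0.243), which encodes CD45, and Mau2 (0.25). Those most like Ace were Prr14l (0.116), Grsf1 (0.151) and Myo1c (0.161). All 3 of the latter were at 0 in Blood_NMO replicate 3 as Ace was. Bag6, Ptprc and Mau2 were lowest in Brain_NMO replicate 2 as Ly6c2 was, and these are the 2 sparse libraries.

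Of 20 other classical markers, all tested, none was called between Brain_NMO and Blood_NMO, 1 was higher (1.48% of all genes) and none lower (3.84%) at an unadjusted p under 0.05, and 3 were higher without overlap (6.3%). Their median log2 fold change was 0.09, close to the 0.05 of all genes tested. Between Brain_NMO and Blood_Normal none was called. There, 4 were higher (1.75% of all genes) and none lower (4.07%) at an unadjusted p under 0.05. Without overlap, 6 were higher (6.07%) and 1 lower (9.37%), and the median was 0.41 against -0.12. Vcan averaged 589, 347 and 65.9 CPM in Brain_NMO, Blood_NMO and Blood_Normal (log2 fold change 3.16 against Blood_Normal, edgeR adjusted p = 0.0647). Vcan was named after its values had been seen. Ccr2, the receptor for the chemokine that draws monocytes into tissue, was at 266, 407 and 234 CPM in Blood_Normal, 687, 664 and 89.3 CPM in Blood_NMO and 1290, 781 and 1126 CPM in Brain_NMO. It was thus higher in every brain library than in every blood library, with a log2 fold change of 1.15 and a standard error of 0.58 against Blood_NMO (adjusted p = 0.802). Of the other 4 most abundant markers of this list, S100a4 and S100a6, calcium-binding proteins, had log2 fold changes of 0.12 and 0.53, Lyz2, a lysozyme, -0.30, and Gda, guanine deaminase, 0.43, and none was called. Thbs1, the gene of thrombospondin, was the marker past the unadjusted threshold between Brain_NMO and Blood_NMO (1070 ± 201 against 295 ± 129 CPM, SD, n = 3, log2 fold change 1.86, adjusted p = 0.183). It was named after its values had been seen.

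Of 24 other non-classical markers, all tested, none was called between Brain_NMO and Blood_NMO, 1 was lower at an unadjusted p under 0.05 (3.84% of all genes), and 2 were higher (6.3%) and 2 lower (6.05%) without overlap, counts near those shares. Their median log2 fold change was 0.49, against 0.05 over all genes tested. Between Brain_NMO and Blood_Normal none was called, and 2 were lower (4.07%) and none higher (1.75%) at an unadjusted p under 0.05. Without overlap, 4 were lower (9.37%) and 1 higher (6.07%) there, and the median was 0.31 against -0.12. The most abundant of these markers were Klf2 (342 against 795 CPM), Adgre5 (312 against 560 CPM), Nr4a1 (626 against 319 CPM), Itgal (289 against 428 CPM) and Tnfrsf1b (391 against 273 CPM, Brain_NMO and Blood_NMO means). Adgre5, the gene of the leukocyte receptor CD97, was lower in every brain library than in every blood library, with a log2 fold change of -0.85 against Blood_NMO (adjusted p = 0.802). It was at 325, 285 and 325 CPM in the brain libraries and at 332 to 889 CPM in the blood libraries. Microglia markers (7 measured), which bear on genes that both cell types use, summed to 0 to 70.8 CPM in the blood libraries and 129 to 492 CPM in the brain libraries, and their part in these levels was not tested.

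Of the 5 transcription factors tied to the subsets, Irf8, a factor of monocyte and dendritic cell descent, was the one called. It was at 1632, 1283 and 1549 CPM in Blood_Normal, 1271, 1423 and 1867 CPM in Blood_NMO and 264, 136 and 191 CPM in Brain_NMO. The log2 fold change against Blood_NMO was -2.95 with a standard error of 0.34 (adjusted p = 0.00183), and against Blood_Normal -2.92 (adjusted p = 0.00205). Over all genes, edgeR called 0.228% lower against Blood_NMO and 0.218% lower against Blood_Normal. NK cells also express Irf8, and the summed NK cell markers given beside Spn were likewise lower in every brain library than in every blood library. Within the brain, Irf8 was highest in replicate 1, the library with the lowest NK cell marker sum. The part of NK cells in the difference of Irf8 was not tested. Nr4a1 was at 541, 739 and 271 CPM in Blood_Normal, 436, 449 and 70.6 CPM in Blood_NMO and 597, 724 and 559 CPM in Brain_NMO. It was higher in every brain library than in every Blood_NMO library (6.3% of all genes) but overlapped Blood_Normal. Its log2 fold change of 0.98 against Blood_NMO, with a standard error of 0.58, was not called (adjusted p = 0.914). Klf4 (log2 fold change 0.95), Cebpb (0.08) and Pou2f2 (-0.50) were not called and their libraries overlapped between Brain_NMO and Blood_NMO.

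Markers of other cells that the gate could hold also differed between the tissues. Platelet markers (4 measured) summed to 151 to 1417 CPM in the blood libraries and 0 to 39.1 CPM in the brain libraries, and border macrophage markers (5 measured, Mrc1 highest in the brain) to 0 to 41.3 CPM and 62.9 to 230 CPM. Plasmacytoid dendritic cell markers (5 measured, 47.7 to 329 CPM in all libraries, Tcf4 highest) and B cell markers (5 measured, 0 to 76.7 CPM) overlapped between the tissues. Their part in the levels of the members was not tested.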

How the data were processed

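The data were single-end QuantSeq 3′ libraries of 75-base reads from sorted monocytes, 9 libraries in 3 groups of 3, grouped by the sample titles. The authors used Bowtie2 for alignment and bedtools for counting, kept reads that aligned at several places as well as unique ones, and deposited raw counts per gene symbol, so repeated sequence can enter the counts of more than 1 gene. The genome build is mm10 per the labels (the submitters' processing notes). The tool versions, the gene annotation and the strand setting are not given in the sources used here.

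Each library listed 23282 entries. Where a symbol was repeated (35 symbols), its largest entry stayed in. Counts were scaled by TMM (factors 0.801 to 1.46) and tested with edgeR 4.0.16 in R 4.3.3 (glmQLFit and glmQLFTest, all 9 libraries, group as the only term) over the 10107 genes that passed filterByExpr, with Benjamini-Hochberg adjustment and a threshold of 0.05. All tests were two-sided. The ribosomal entry Rn45s took 28.4% to 43.6% of the counts. Alternatives used DESeq2 1.42.0, limma-voom (limma 3.58.1) with quality weights, other scalings and filters, a replicate block, and each library left out. Leaving out both sparse libraries was chosen after seeing the data. The test was also run on simulated data, at the spread of these data and at a far lower spread. A recovery was required only at the lower spread, and the recovery at the spread of these data is not given here. Passing that requirement does not show how well changes of the members would be found. No replicate pair held the same values (chi-square per degree of freedom 82.7 to 347). The floor of 3 counts covers counting error only.

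The members, gene lists and tests were chosen with earlier results of these data known. Named genes were the 10 members, the 5 most abundant genes of each wider list and any such gene called, the 5 transcription factors, Ly6c1, the 3 genes most like Ly6c2 and the 3 most like Ace, and the leading gene of a cell type list. Promoters came from RefSeq (GRCm38.p6), where 9 of 10 members matched, with 12 starts. Gene positions came from GENCODE vM21.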

Additional observations from a re-analysis of the deposited data

How the results depend on the processing

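Over all refits of single members, 8 gained and 10 lost a call, 27 turned sign, and the rest kept both. Between Brain_NMO and Blood_NMO, 1 member (Spn) was called with at least 10 counts in every library or by DESeq2, against 0. Between Brain_NMO and Blood_Normal, 1 was called without a filter (Ly6c2, adjusted p = 0.0135), with at least 10 counts, by DESeq2 and without both sparse libraries (Spn), against 0, and 0 to 1 with a library left out. Against both blood groups, 2 were called without a filter, 0 by limma-voom (Spn adjusted p = 0.0789) and 0 to 1 with a library left out, against 1. At an unadjusted p, limma-voom gave 5 members for Brain_NMO against Blood_NMO, 2 for the blood groups and 6 for both blood groups, and the groups compared alone gave 1 for the first. Between the blood groups 1 member (Plac8 or, without both sparse libraries, Chil3) passed under RLE or TMMwsp factors, without a filter, with at least 10 counts, with only these groups and without both sparse libraries, against 0, and 0 to 1 with a library left out. Leaving out a library gave 1 to 3 members for Brain_NMO against Blood_NMO and 2 to 4 against both blood groups.

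Fits with the replicate number as a block called 0 members against both blood groups (Spn adjusted p = 0.0858) and passed 1 between the blood groups. With the block, Eno3 between the blood groups turned to -0.70 and Treml4 against both blood groups to -0.067. Deviations of the 9 same-numbered pairs correlated by -0.01 to 0.116, over 0.1 in 1, and 7 of 9 libraries were closest to their own number. These weak correlations do not settle whether the numbers pair the libraries.

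Spn between the blood groups, near 0, turned to 0.04 (RLE and DESeq2), 0.19 (library sizes), 0.012 (at least 10 counts) and 0.023 (limma-voom), and Treml4 against both blood groups to -0.04 (limma-voom). Without both sparse libraries Treml4 against Blood_Normal turned to 0.42 and Ace against both blood groups to -0.25. With a library left out, log2 fold changes ranged for Brain_NMO against Blood_NMO from -0.60 to 0.27 (Chil3) and -0.62 to 0.078 (Plac8), against Blood_Normal from -0.71 to 1.13 (Treml4), against both blood groups from -0.27 to 0.37 (Chil3) and -0.33 to 0.85 (Treml4), and between the blood groups from -0.19 to 0.23 (Spn), -1.24 to 0.56 (Treml4), -0.65 to 1.29 (Eno3) and -0.18 to 0.79 (Adgre4). The cause of these changes was not tested. The all-gene median shifted from 0.05 to -0.65 under limma-voom for Brain_NMO against Blood_NMO. With 3 pools a group, low members rest on few libraries in the brain. In Brain_NMO, Treml4 was at or under the floor in 1 library, Adgre4 and Eno3 in 2 and Cd300e in all 3.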
